A study of Homo sapiens with 18 samples.

Results

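The p24 family (TMED genes) was followed as 9 rows of the gene count table, TMED1, TMED2, TMED3, TMED4, TMED5, TMED7, TMED8, TMED9 and TMED10, out of 25435 rows in all. The members were taken by name as the TMED genes that encode single-pass membrane proteins with signal peptides cycling between endoplasmic reticulum (ER) and Golgi. All 9 had 132 to 10979 reads in every library and passed the filter on low counts in each of the 8 comparisons made. The cells were HEK293doxERN2, a HEK293 (human embryonic kidney) line carrying a doxycycline-inducible FLAG-ERN2 transgene, and every library came from this line. ERN2 (IRE1β) is a stress sensor of the ER membrane with kinase and endoribonuclease domains. Cells received 0 (No ERN2), 10 (Low ERN2) or 100 (High ERN2) ng/mL doxycycline for 24 hours and, for 3 hours, 200 nM thapsigargin (the stress groups) or its vehicle DMSO (control), giving 6 groups of 3 RNA-seq libraries. Thapsigargin blocks the calcium pump of the ER and is a standard inducer of ER stress. Cells without the transgene were not given doxycycline here, so the drug and the induced protein cannot be told apart.

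p24 proteins are abundant components of transport vesicles between ER and Golgi. They associate with each other into heteromeric complexes whose lumenal domains meet cargo, of which glycosylphosphatidylinositol (GPI)-anchored proteins are the best known, and whose short cytosolic tails bind the COPII coat for export and the COPI coat for return. The family falls into an alpha branch (TMED4 and TMED9), a beta branch (TMED2), a gamma branch (TMED1, TMED3, TMED5 and TMED7) and a delta branch (TMED10), and loss of a single member often lowers the protein level of its partners.

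The annotated proteins of 7 members had both a signal-like N-terminal segment and a C-terminal membrane segment, TMED4 had the first and fell short of the cut for the second, and TMED8 had neither. In the principal GENCODE transcripts of GRCh38, the most hydrophobic 12-residue stretch in the first 40 residues had a mean Kyte-Doolittle hydropathy of 2.08 to 2.99 in the 8, above the 2.0 used to mark a signal-like segment, and 0.24 in TMED8. Near the C terminus the best 19-residue window averaged 1.62 to 2.29 in 7 members, above the 1.6 used to mark a membrane segment, 1.44 in TMED4 and -0.09 in TMED8. TMED8 was also the longest protein, 325 residues against 201 to 235, and shared 12.8% to 17.4% identical positions with the others. By contrast TMED4 and TMED9 shared 75.1%, TMED3 and TMED7 64.3%, and TMED1 and TMED5 54.3%. A pair of adjacent phenylalanines, the feature of p24 tails that COPII recognises, stood in the last 15 residues of TMED1, TMED2, TMED3, TMED4, TMED7, TMED9 and TMED10. A lysine 3 or 4 residues from the end, part of the motif that COPI binds, was present in TMED4, TMED5, TMED9 and TMED10.

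**Figure D1:**
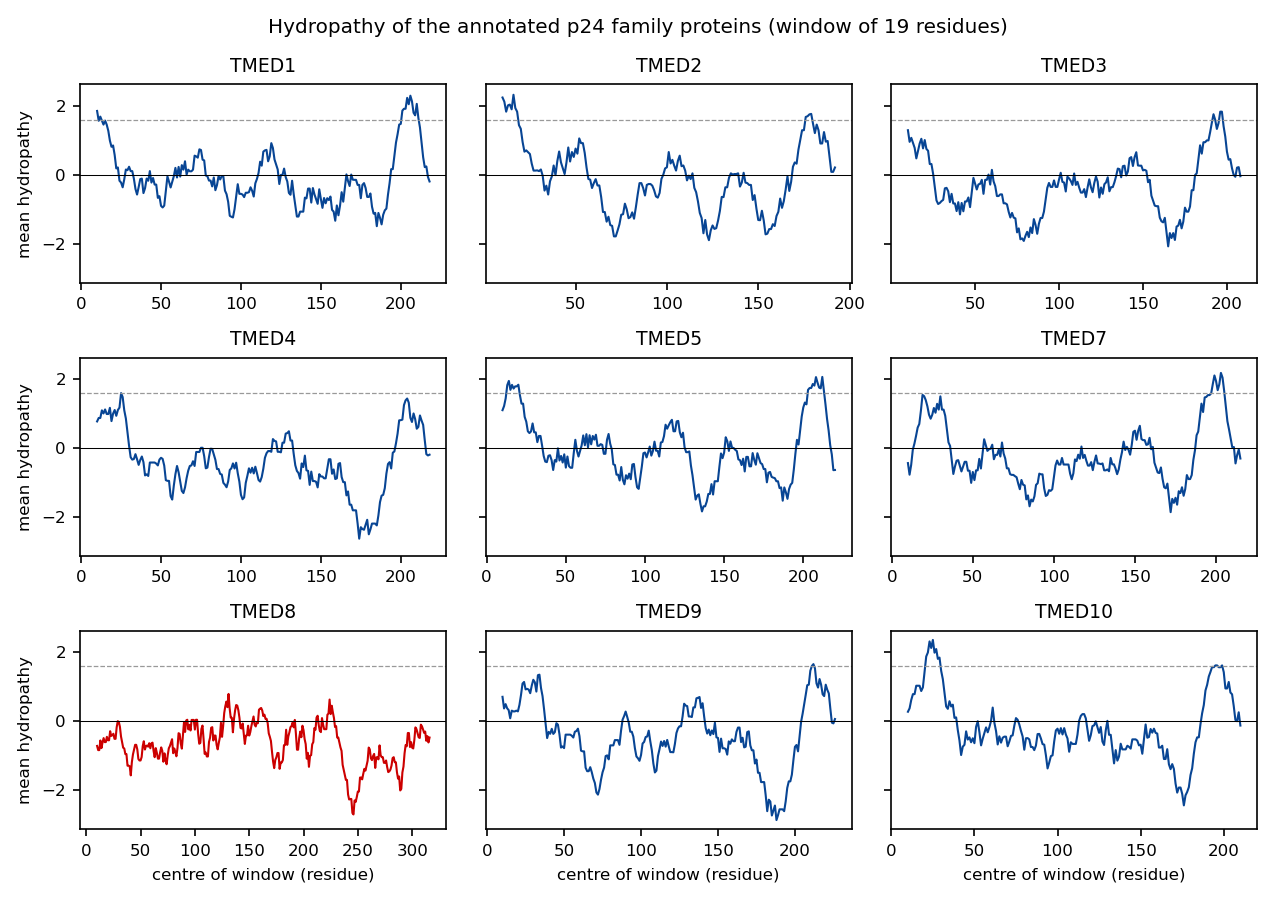
Mean Kyte-Doolittle hydropathy in a sliding window of 19 residues along the annotated protein of each member, with the residue at the centre of the window on the x axis. The dashed line marks 1.6. A peak stands at both ends of 8 proteins, under the line in TMED4 at the C terminus (1.44), and TMED8 (red) has neither.

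Promoter sequences were looked at because the factors ATF6 and XBP1, which ER stress activates, are known to bind elements with the core ACGTGG. RefSeq windows (GRCh38.p14) from 250 bases before to 50 after the start were matched for 7 members in 8 windows, and TMED4 and TMED9 had no entry. The core was searched on both strands and lay in the windows of TMED2, TMED3, TMED7 and TMED10, against 9.72% of 35116 windows in the whole table. None of the 8 windows held the longer elements ERSE (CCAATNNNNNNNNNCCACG, in 0.0769% of all windows), ERSE-II (0.0541%) or UPRE (TGACGTGG, 0.729%; it contains the core). The shorter CCACG, which the core's reverse strand contains, was in 38.1% of all windows. Both matches that lay upstream of the annotated transcript are shown 5′ to 3′ on the gene's strand, with the core in capitals. The TMED2 match begins 95 bases and the TMED10 match 29 bases before the start, at chr12:123584430-123584489 (plus strand) and chr14:75176632-75176691 (minus strand). The exons of TMED2 share 286 bases with those of a non-coding RNA on the opposite strand.
TMED2: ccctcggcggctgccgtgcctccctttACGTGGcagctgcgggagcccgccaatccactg
TMED10: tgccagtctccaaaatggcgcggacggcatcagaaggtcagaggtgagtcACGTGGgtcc

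Library totals ran from 14876416 to 24652240 counts. Mean ERN2 levels were 7.92, 35.7 and 266 CPM (reads scaled by library size) in the No, Low and High ERN2 control groups and 12.4, 66.0 and 201 CPM under thapsigargin, in the order of the labels. HSPA5 (BiP), the main ER chaperone, averaged 510 CPM in the No ERN2 control group and 3687 CPM under thapsigargin. Of the markers known from HEK293 cells, NEFL (67.3 to 124.9 CPM), INA (71.0 to 157.4), NEFM (16.3 to 31.3) and LIN28B (24.8 to 79.3) were present. PAX2, another of them, was low, with 17 to 89 reads (1.16 to 4.42 CPM). The extraction text names colon crypt cells. Of 7 colon markers, MUC2, CDX1, CLCA1, VIL1, KRT20 and LGALS4 had at most 9 reads in any library. The other colon marker, the transcription factor CDX2, was present with 56 to 161 reads (3.21 to 8.94 CPM). The libraries differed in the levels of transcripts of different base composition. In the tercile of genes richest in GC, the median deviation from each gene's mean was 0.27 and 0.32 (log2) in Low ERN2 control replicates 2 and 3 and -0.32 and -0.40 in High ERN2 stress replicates 2 and 3, with the opposite sign in the GC-poorest tercile. The transcripts of TMED1, TMED3 and TMED9 are GC-rich (57.0% to 60.9%), TMED4 lies between (47.9%) and TMED2, TMED5, TMED7, TMED8 and TMED10 are GC-poor (37.4% to 43.1%). In each comparison, members and all-gene counts are therefore also given with a correction for transcript GC content and length where this changed a call. The gene lists and the gene class used below for comparison were not counted with it. The correction was chosen after the data were seen.

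Scaled to transcript length, TMED2 was the most abundant member and TMED8 the least. In the No ERN2 control group the level was 146 ± 13.7 CPM per kilobase for TMED2 (SD, n = 3, as throughout), 78.7 ± 6.99 for TMED9, 40.3 ± 4.54 for TMED10, 39.5 ± 1.86 for TMED3, 29.1 ± 1.92 for TMED4, 16.8 ± 1.06 for TMED1, 16.4 ± 4.14 for TMED5, 12.2 ± 4.26 for TMED7 and 1.29 ± 0.231 for TMED8. The neighbours TMED10 and TMED3 lay within each other's spread, as did TMED1 and TMED5, and TMED5 and TMED7. So the single beta and delta members and the alpha member TMED9 headed the order, and the gamma members other than TMED3 stood below them. TMED6, the gamma member outside the set, had 0 to 12 reads per library. The readthrough gene TMED7-TICAM2, which shares 935 exonic bases with TMED7, was at 0 in all 18 libraries, below a floor of 3 counts; reads that fit both genes may not have been assigned to either.

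The summed level of the 9 genes was lowest in the group with both treatments. It was 961 ± 76.5 CPM in No ERN2 control, 1100 ± 6.57 in Low ERN2 control and 945 ± 14.4 in High ERN2 control cells. Under thapsigargin it was 1073 ± 162, 1164 ± 162 and 749 ± 86.1 CPM in the same order. The High ERN2 stress libraries, at 710, 690 and 848 CPM, all lay below the lowest of the other 15 libraries, at 895 CPM. TMED2 made up 34.9% to 39.0% of the sum on average in every group. In bulk RNA, fewer cells with a transcript and less of it per cell cannot be told apart.

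**Figure D2:**
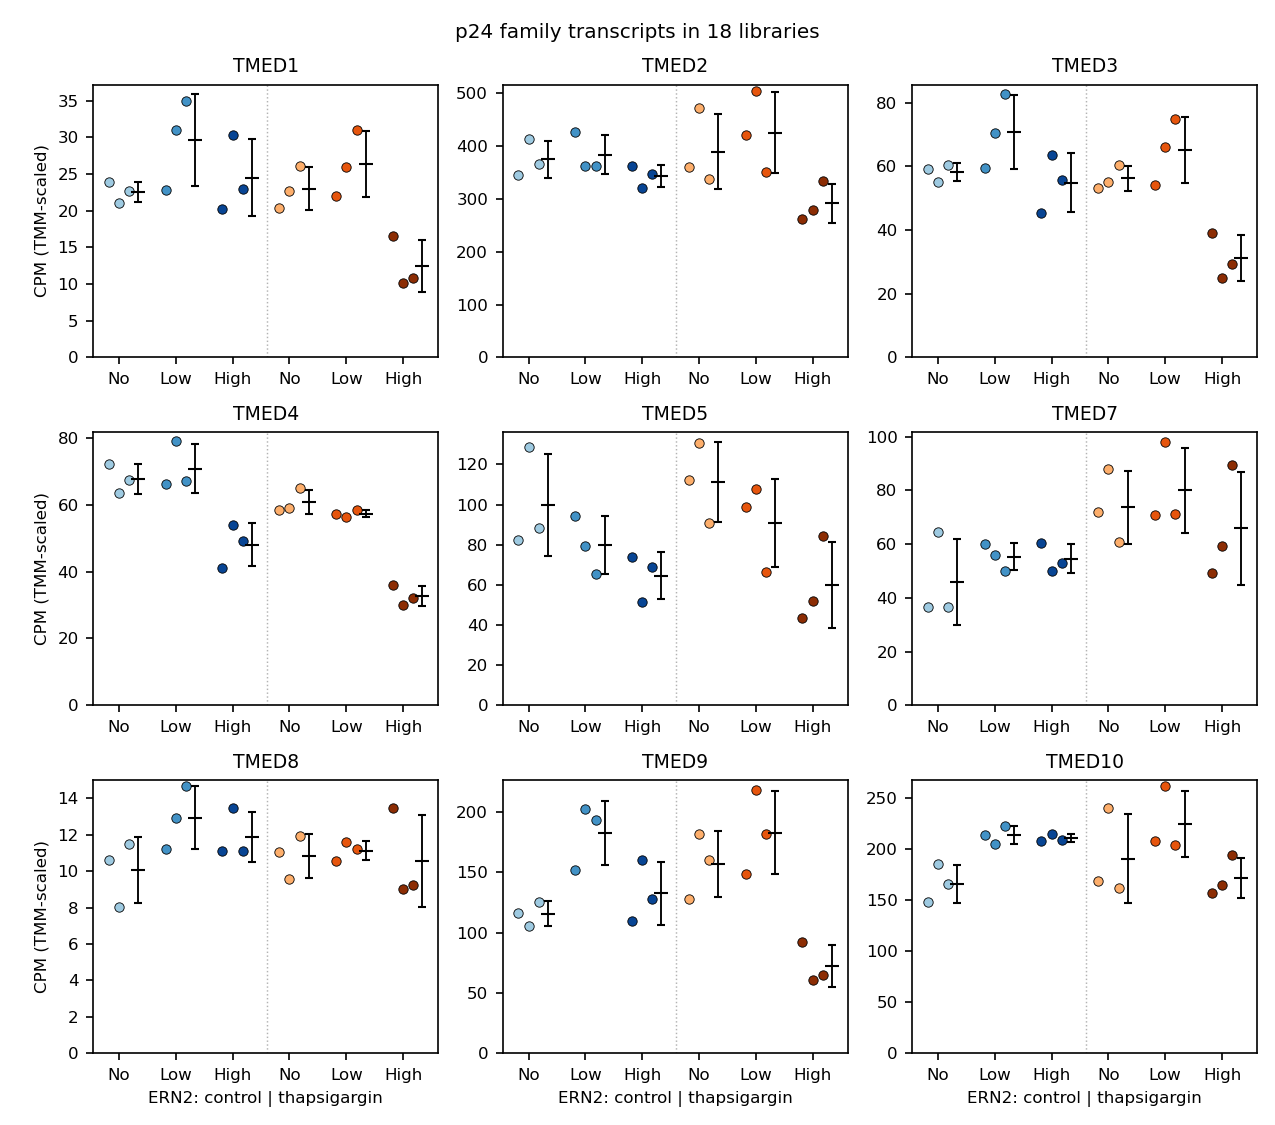
Level of each member in each library (points, CPM on a linear axis from 0), by ERN2 induction in control (left of the dotted line) and thapsigargin-treated cells (right), with the group mean ± SD (n = 3) beside the points. In High ERN2 stress, TMED1, TMED3, TMED4 and TMED9 lie below every library of the 5 other groups. The share of all genes that do so was not counted. Lower, non-overlapping groups were found for 23.2% of genes against No ERN2 stress and 15.8% against High ERN2 control.

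The main question of the design was what ERN2 does to cells with and without ER stress. In thapsigargin-treated cells, High against No ERN2 lowered 3 members, TMED3, TMED4 and TMED9, and raised none, at an adjusted p under 0.01 (edgeR quasi-likelihood test, Benjamini-Hochberg over all genes tested). TMED9 (chr5:177592158-177596124, plus strand), an alpha member of the early secretory pathway, had 128, 182 and 160 CPM in the No ERN2 stress libraries and 92.5, 60.4 and 65.2 CPM in the High ERN2 stress libraries. It fell to 0.48-fold (log2 fold change -1.05 ± 0.19 SE, adjusted p = 0.00156), and the groups did not overlap. TMED4 (chr7:44577894-44582287, minus strand), its closest relative, had 58.4, 59.0 and 64.9 CPM against 36.0, 30.0 and 32.1 CPM. This was a fall to 0.56-fold (-0.83 ± 0.15, adjusted p = 0.00150), again without overlap. TMED3 (chr15:79311062-79427432, plus strand), a gamma member, had 53.1, 55.1 and 60.5 CPM against 39.1, 24.9 and 29.3 CPM (-0.79 ± 0.17, adjusted p = 0.00646). Its highest induced library lay well under the lowest uninduced library.

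Of the other 6, TMED1, TMED2 and TMED5 also had groups that did not overlap, all with lower values in High ERN2, without passing the threshold; DESeq2 called TMED1 and TMED5 in addition to the 3. TMED1 had 20.3, 22.6 and 26.1 CPM against 16.5, 10.1 and 10.9 CPM (-0.82 ± 0.20, adjusted p = 0.0139). TMED5 had 112, 131 and 90.9 CPM against 43.6, 52.2 and 84.3 CPM (-0.83 ± 0.23, adjusted p = 0.0238; 0.00123 without High ERN2 stress replicate 3). TMED2 had 360, 471 and 337 CPM against 263, 279 and 333 CPM (-0.36 ± 0.16, adjusted p = 0.136). In these 3 the margin between groups was small for TMED2 and TMED5, whose highest induced library was replicate 3. TMED7 (-0.10 ± 0.22), TMED10 (-0.09 ± 0.18) and TMED8 (0.03 ± 0.20) had overlapping groups, with 95% intervals of -0.54 to 0.34, -0.43 to 0.25 and -0.38 to 0.43. These intervals use a normal quantile and are narrower than the quasi-likelihood test implies. The value of TMED8 turned to -0.04 with library totals alone as the scale and to -0.03 in a fit of all 6 groups.

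Against all genes, the share of members called was higher than that of all genes. Of 14358 genes tested, 10.5% were called in either direction and 9% were lower, and 23.2% had lower, non-overlapping groups in this contrast, against 3 and 6 of the 9 members. The median member stood at -0.79 and the median gene at 0.04. A nearer background is the 1935 genes whose annotated protein has a hydrophobic N-terminal segment by the same measure: their median was -0.71, and 36.6% of them were lower. In this fit the members' median was close to that of this class, and their share of calls was not above its share. DESeq2 called 5 members and the GC and length correction 6, and the class was not counted under either. Its share of non-overlapping groups was not counted. TMED1 shares 776 exonic bases with DNM2, and TMED5 675 with CCDC18, on the opposite strand, and whether the counting used strand is not given in the sources used here. DNM2 and CCDC18, picked for this overlap, were at 0.00 (adjusted p = 0.987) and 0.98 (adjusted p = 0.0771) in the same contrast.

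**Figure D3:**
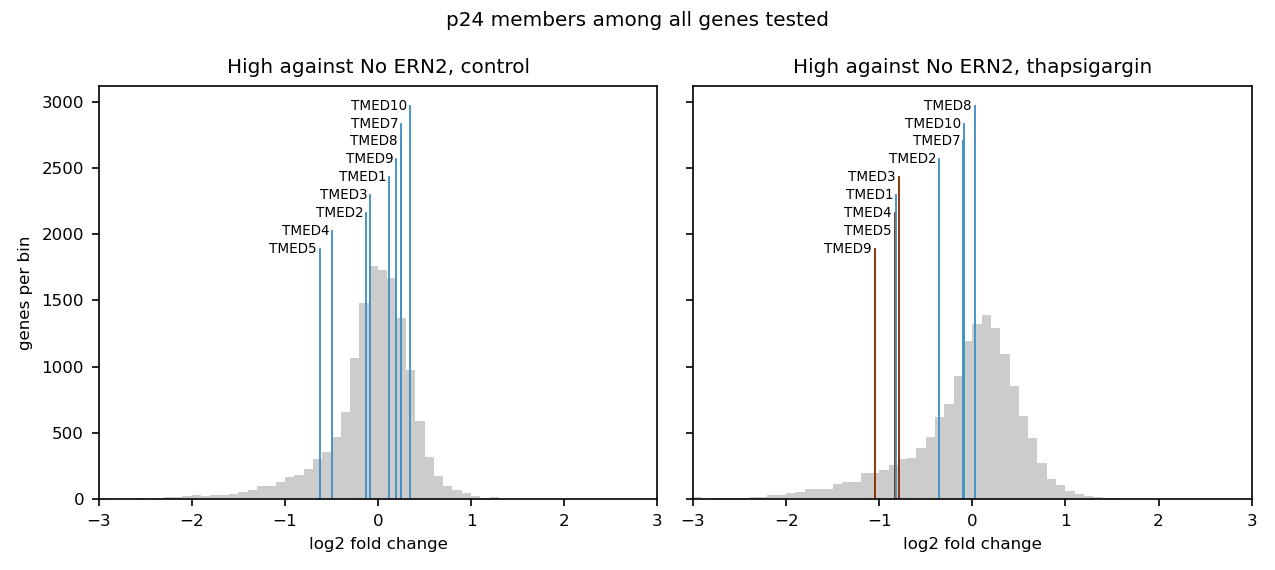
Number of genes per 0.1-wide bin of log2 fold change (grey bars) for High against No ERN2 in control and thapsigargin-treated cells, with each member as a vertical line, brown where the adjusted p was under 0.01. Line height only separates the names. Under thapsigargin the members TMED1, TMED3, TMED4, TMED5 and TMED9 lie in the lower shoulder of the distribution, between -0.79 and -1.05.

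These calls moved with the libraries used. Without High ERN2 stress replicate 2 none of the 3 passed (adjusted p = 0.0162 for TMED9, 0.0191 for TMED4 and 0.0538 for TMED3) and 763 genes were called in place of 1512. Without replicate 1 of that group 4 members and 3950 genes were called, TMED1 being added. TMED3 kept its call in 1 of the 6 fits with a library left out, and TMED4 and TMED9 in 5. With the GC and length correction 6 members were lower at the threshold, as were 11.1% of all genes, and the share of higher among all called genes was 50.2% in place of 14.6%. The 6 were TMED5 (-1.02 ± 0.12, adjusted p = 1.92e-05), TMED9 (-0.92, adjusted p = 0.000130), TMED4 (-0.74, adjusted p = 0.000206), TMED1 (-0.65, adjusted p = 0.00276), TMED3 (-0.64, adjusted p = 0.000885) and TMED2 (-0.53, adjusted p = 0.00328). TMED7 was at -0.36, TMED10 at -0.20 and TMED8 at 0.13 with the correction, none of them past the threshold. The median of all genes was then 0.13 in place of 0.04, and that of the members -0.64.

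Without stress, High ERN2 called 0 of 9 members against 8.33% of 14444 genes, with 3 members at an unadjusted p under 0.05. DESeq2 called 2, TMED4 and TMED5. TMED4 had 72.3, 63.4 and 67.2 CPM in No ERN2 and 41.1, 53.9 and 49.2 CPM in High ERN2 control libraries (-0.49 ± 0.13, adjusted p = 0.0206; 0.00261 without High ERN2 control replicate 2), with no overlap. TMED5, a gamma member without the phenylalanine pair, had 82.5, 129 and 88.1 CPM against 73.7, 51.3 and 68.9 CPM (-0.63 ± 0.18, adjusted p = 0.0336). TMED10, the delta member, went the other way with 148, 185 and 166 CPM against 208, 215 and 209 CPM (0.34 ± 0.11, adjusted p = 0.0525). These 3 were the members whose groups did not overlap, in a contrast where 33.1% of genes had such groups. The other 6 lay between -0.13 (TMED2) and 0.25 (TMED7), and the median member was 0.12. Genes with a hydrophobic N-terminal segment had a median of -0.47 in this contrast and 31.8% of 1968 were lower, and the members' median lay above that of this class. The GC and length correction called 3 members and 18.1% of genes, of which 44.5% were higher in place of 10.1%. TMED4 (-0.42, adjusted p = 0.00709) was lower, and TMED7 (0.53, adjusted p = 0.00415) and TMED10 (0.58, adjusted p = 0.000416) were higher.

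Low ERN2 without stress called 0 of 9 members and 0.193% of 14497 genes, with 4 members at an unadjusted p under 0.05 and 1, TMED9, called by DESeq2. Of the 9 values, 8 were above 0, with a median of 0.29 against 0.00 for all genes. TMED9 had 117, 105 and 126 CPM in No ERN2 and 152, 203 and 193 CPM in Low ERN2 control libraries (0.66 ± 0.13, adjusted p = 0.0309). TMED10 had 214, 206 and 222 CPM in the Low ERN2 libraries (0.36 ± 0.11, adjusted p = 0.0825). Both sets of libraries lay above all uninduced controls, as they did for 14.4% of genes. TMED5 was the member below 0, at -0.32 ± 0.17, and turned to 0.09 with the GC and length correction, under which TMED10 alone was called (0.70, adjusted p = 0.00242; 0.842% of genes). In this contrast the GC-richest tercile of genes had a median of 0.26 and the poorest -0.29. Without Low ERN2 control replicate 1, whose GC profile was flat, 2 members, TMED1 (0.55, adjusted p = 0.00520) and TMED9 (0.77, adjusted p = 0.000298), and 2743 genes were called in place of 28.

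**Figure D4:**
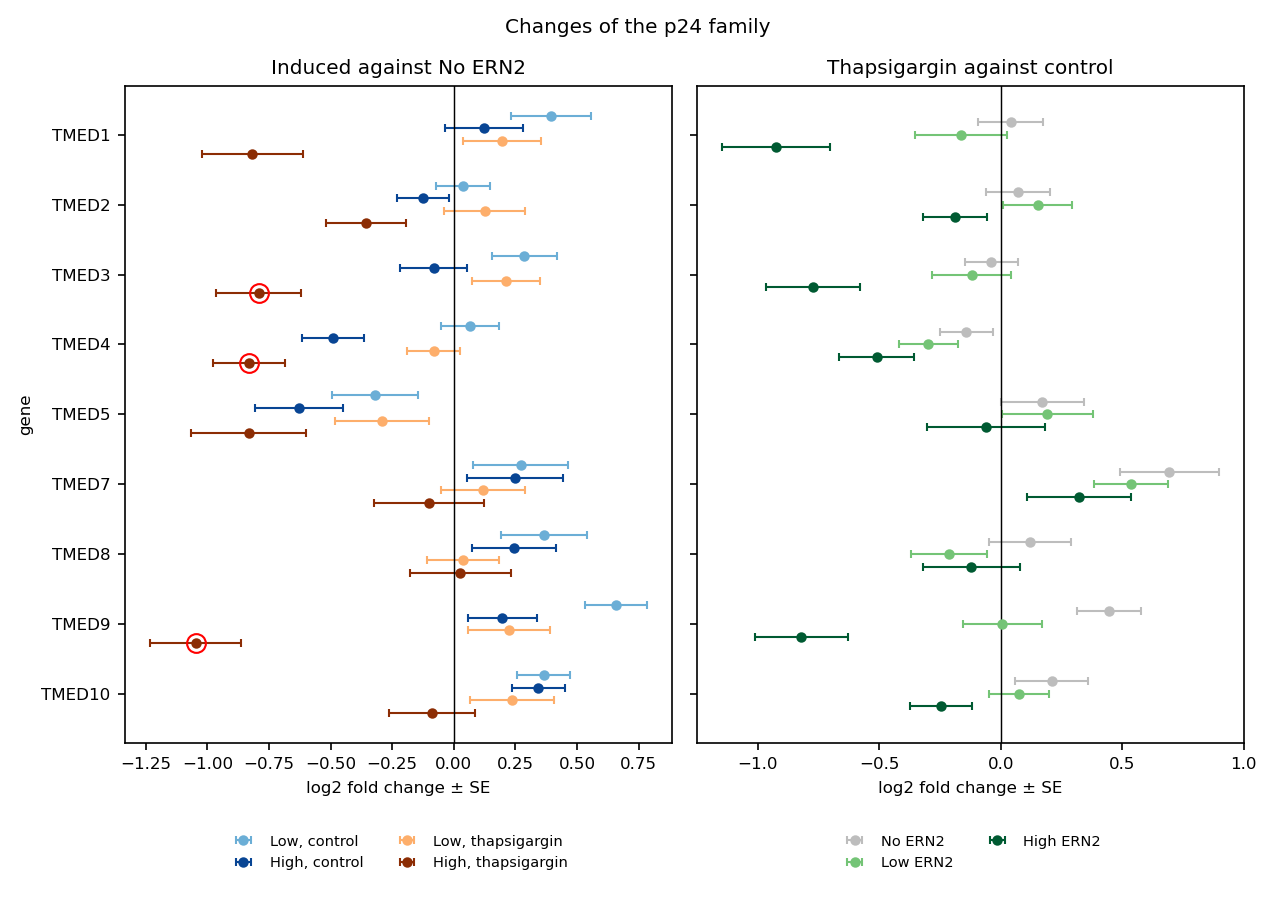
Log2 fold change ± SE of each member for Low and High against No ERN2 (left) and for thapsigargin against control at each level of ERN2 (right); red circles mark an adjusted p under 0.01. On the left, both control comparisons share the No ERN2 control libraries, and both thapsigargin comparisons share the No ERN2 stress libraries. TMED9 lies at 0.66 for Low ERN2 without stress and at -1.05 for High ERN2 under thapsigargin.

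Low against No ERN2 under thapsigargin showed no member and no gene past the threshold (0% of 14509), no member and 612 genes at an unadjusted p under 0.05, and no member and 39 genes by DESeq2. The induced gene ERN2, higher on average in the Low ERN2 group, was itself not past the threshold in the edgeR fit. The lack of calls there therefore does not show a lack of change. The members lay between -0.29 (TMED5) and 0.24 (TMED10), and the groups of all 9 overlapped, whereas those of 9.88% of genes did not. Replicate numbers paired the libraries in this comparison: the deviations of same-numbered libraries correlated at 0.376, 0.319 and 0.433. With the replicate number as a block, 564 genes (3.89%) and 2 members were called, TMED5 lower (-0.30, adjusted p = 0.00462) and TMED10 higher (0.25, adjusted p = 0.00790). TMED5 had 112, 131 and 90.9 CPM in No ERN2 and 98.9, 108 and 66.2 CPM in Low ERN2 stress libraries, lower in each numbered pair. TMED10 had 169, 241 and 162 CPM against 208, 262 and 204 CPM, higher in each. With the GC and length correction and the block together, 2 members were called, TMED2 (0.19, adjusted p = 0.00678) and TMED10 (0.33, adjusted p = 0.000619).

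Thapsigargin alone, without induction of ERN2, called 0 of 9 members against 11.2% of 14397 genes, with 2 members at an unadjusted p under 0.05 and 1, TMED7, called by DESeq2. TMED7, a gamma member, had 36.7, 64.4 and 36.6 CPM in control and 72.1, 88.1 and 60.7 CPM in treated libraries (0.69 ± 0.20, adjusted p = 0.0270). Control replicate 2 lay within the treated range, and without it TMED7 was called (1.02, adjusted p = 0.000383), as it was without No ERN2 stress replicate 3 (0.82, adjusted p = 0.00317). TMED9 had 117, 105 and 126 CPM against 128, 182 and 160 CPM (0.45 ± 0.13, adjusted p = 0.0268; 0.00917 without No ERN2 stress replicate 1). It was the member whose treated libraries all lay above the controls, as in 19.8% of genes. The other 7 lay between -0.14 (TMED4) and 0.21 (TMED10). With the GC and length correction TMED7 was called (0.82, adjusted p = 0.000321), as were 19.2% of genes. With the replicate number as a block 2 members, TMED7 and TMED9, were called higher, beside 3571 of 14397 genes called in either direction. Among the members with the ACGTGG core, TMED7 stood at 0.69, TMED10 at 0.21, TMED2 at 0.07 and TMED3 at -0.04, so the values spread on both sides of 0.

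With Low ERN2, thapsigargin called 0 of 9 members and 1.45% of 14607 genes, with 2 members at an unadjusted p under 0.05 and none by DESeq2. TMED7 had 59.99, 55.9 and 50.1 CPM in control and 70.8, 98.1 and 71.1 CPM in treated libraries (0.54 ± 0.15, adjusted p = 0.0604). TMED4 had 66.1, 79.1 and 67.0 CPM against 57.2, 56.3 and 58.5 CPM (-0.30 ± 0.12, adjusted p = 0.162). Those 2 had groups that did not overlap, as had 28.3% of genes. With the replicate number as a block both were called, TMED7 higher (adjusted p = 3.85e-05) and TMED4 lower (adjusted p = 0.00984), beside 3620 of 14607 genes. Same-numbered libraries correlated at 0.46, -0.03 and 0.40 here, so not every number paired its libraries.

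With High ERN2, thapsigargin called 0 of 9 members and 0.201% of 14427 genes, but 4 members had an unadjusted p under 0.05 and DESeq2 called 3 (TMED1, TMED3 and TMED9). TMED9 had 110, 161 and 128 CPM in control and 92.5, 60.4 and 65.2 CPM in treated libraries (-0.82 ± 0.19, adjusted p = 0.0459). TMED1 had 20.2, 30.3 and 23.0 CPM against 16.5, 10.1 and 10.9 CPM (-0.92 ± 0.22, adjusted p = 0.0509). TMED3 had 45.2, 63.7 and 55.8 CPM against 39.1, 24.9 and 29.3 CPM (-0.77 ± 0.19, adjusted p = 0.0547). In these 3, and in TMED4 (-0.51 ± 0.15) and TMED10 (-0.25 ± 0.13), every treated library lay under every control library, 5 of 9 members against 15.8% of genes. The median member stood at -0.25, above the median of -0.38 of the 1924 genes with a hydrophobic N-terminal segment. TMED7 was the member above 0 (0.32 ± 0.21), and its value turned to -0.07 with the GC and length correction. That correction called 5 members lower, TMED1, TMED2, TMED3, TMED9 and TMED10 at -0.48 to -0.66, against 3.37% of genes. Without High ERN2 stress replicate 1, TMED1, TMED3 and TMED9 were called, and 2568 genes in place of 29. Of the 29 genes 89.7% were higher. The share was 54.9% of the 51 called with library totals as the scale, 40.1% of 811 with the GC and length correction, 36.8% of 299 without a filter, 35.1% of 732 by DESeq2 and 24.8% of 941 in a fit of all 6 groups.

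Whether the response to thapsigargin differed between High and No ERN2 was tested as an interaction. No member passed (0.0406% of 14768 genes did), 3 had an unadjusted p under 0.05, and DESeq2 called TMED9. All 9 values were below 0, with a median of -0.29 against 0.04 for all genes and -0.18 for genes with a hydrophobic N-terminal segment. TMED9 had the lowest, -1.18 ± 0.24 (adjusted p = 0.0344), followed by TMED1 (-0.88 ± 0.26, adjusted p = 0.0846) and TMED3 (-0.65 ± 0.21, adjusted p = 0.0996). For TMED9 the treated libraries all lay above the controls in No ERN2 cells and all below them in High ERN2 cells. Without High ERN2 stress replicate 1 these 3 were called, with 1286 genes in place of 6. The GC and length correction called TMED9 (-1.01, adjusted p = 0.00287) and TMED7 (-0.89, adjusted p = 0.00860), and 1.25% of genes. For comparison the stress genes XBP1, whose product is the transcription factor downstream of IRE1, and HSPA5 had interactions of -2.14 (adjusted p = 1.20e-06) and -1.58 (adjusted p = 0.00897). Both interactions also hold the difference between the High and No ERN2 control groups. The other stress gene used as a check, DDIT3, did not pass the threshold.

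**Figure D5:**
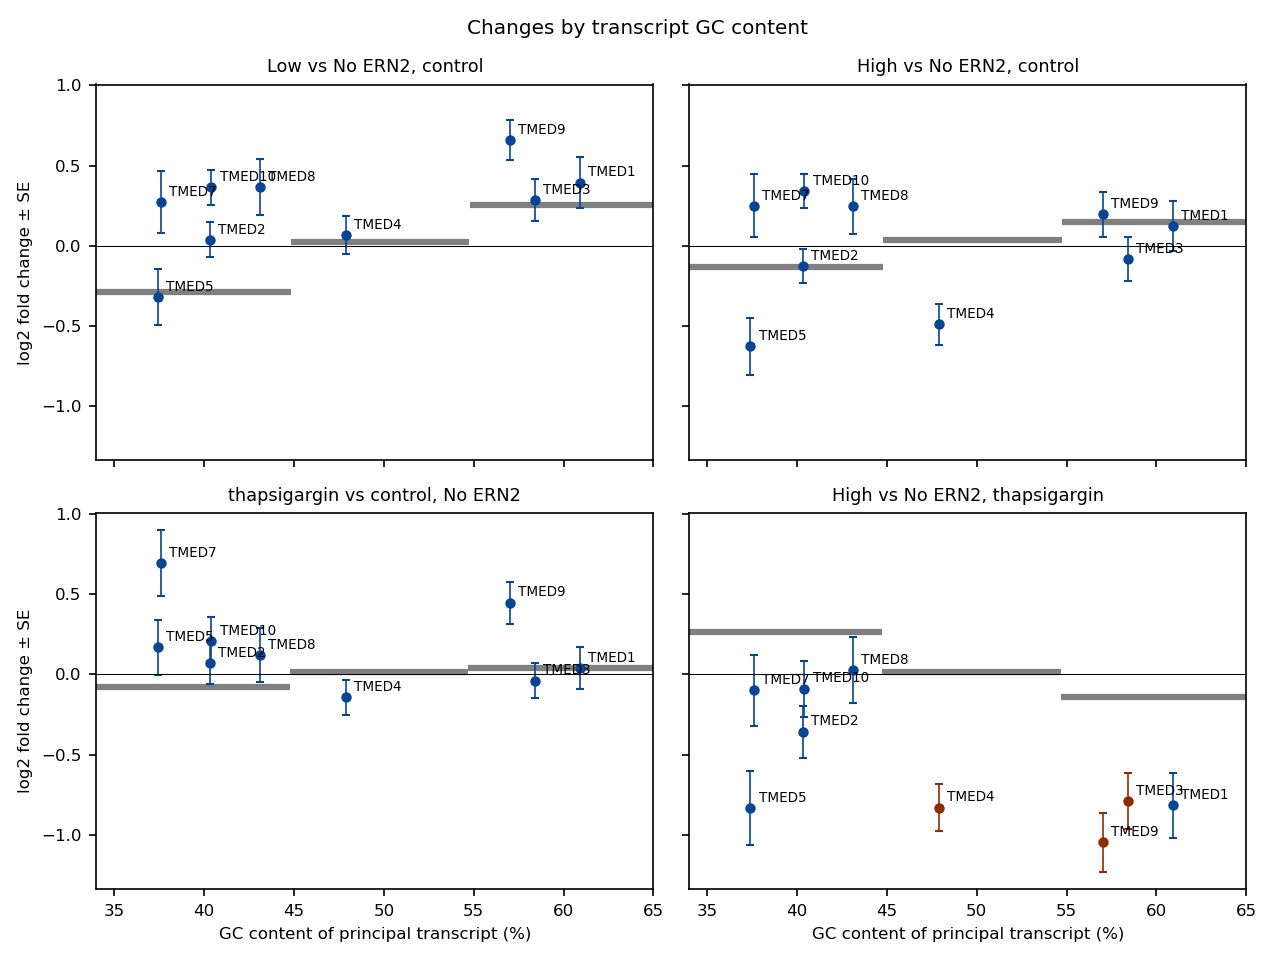
Log2 fold change ± SE of each member against the GC content of its principal transcript in 4 comparisons, with the median of all genes in the lowest, middle and highest GC tercile as grey bars (drawn from 34% to 65%). In Low against No ERN2 without stress the all-gene medians run from -0.29 to 0.26, and in High against No ERN2 under thapsigargin from 0.26 to -0.14.

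The coats and tail partners that act with p24 proteins had medians above 0 in High against No ERN2 without stress. Of 13 COPII coat genes 4 rose and none fell, where 0.838% of all genes tested were higher. The 3 with the greatest change were SEC24D, a cargo-binding subunit that takes part in export with p24 proteins (1.64 ± 0.12, adjusted p = 1.18e-06), PREB, the exchange factor for SAR1 (1.01 ± 0.14), and SEC24C, another cargo-binding subunit (0.87 ± 0.11). Of 8 COPI genes tested 2 rose, COPG1 (0.87 ± 0.13) and COPA (0.45 ± 0.10), both coat subunits, and none fell. None of 5 ARF and Golgi partners of p24 tails passed; they lay between 0.26 and 0.53. The median of the COPII list was 0.22, of the COPI list 0.31 and of the partners 0.38, against -0.01 for all genes tested.

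Membrane-bound cargo receptors and GPI-anchored proteins, the cargo of p24 complexes, lay lower in the same contrast, in which 7.49% of all genes and 31.8% of those with a hydrophobic N-terminal segment were lower. Of 13 other ER-Golgi receptors 5 fell and none rose, among them ERGIC3 (-2.11 ± 0.11), ERGIC1 (-2.04 ± 0.12) and KDELR2, a retrieval receptor for ER proteins (-0.85 ± 0.10). Of 18 GPI-anchored proteins and anchor-remodelling genes tested 7 fell and none rose, led by the proteoglycan GPC3 (-2.25 ± 0.15), the ectoenzyme NT5E (-2.05 ± 0.22) and GPC1 (-1.85 ± 0.17). The shares of both lists lay well above that of all genes and near that of the class with the segment. Under thapsigargin, High against No ERN2 lowered 7 of 13 receptors and 9 of 18 GPI-list genes and raised none, and lowered 1 of 13 COPII genes, SEC16A (-0.63 ± 0.13), with no COPI gene or partner past the threshold, beside 9% of all genes and 36.6% of the class with the segment. The medians were -0.71 for the receptors, -0.90 for the GPI list, 0.35 for COPII and 0.28 for COPI, with the p24 members at -0.79 and the class with the segment at -0.71.

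Thapsigargin without induction raised 2 of 13 COPII genes, SEC24D (1.61 ± 0.27) and PREB (0.82 ± 0.13), and 2 of 5 partners, GORASP2, a Golgi stacking protein (0.75 ± 0.13), and GBF1, an exchange factor for ARF1 (0.47 ± 0.10), where 6.45% of all genes tested were higher. It lowered ERGIC2 (-0.75 ± 0.16) of the receptors and GPC1 (-1.07 ± 0.12) and CD59, a complement inhibitor (-1.06 ± 0.10), of the GPI list, where 4.74% of all genes were lower, and called none of 8 COPI genes. In Low ERN2 cells 1 gene of the 5 lists was called, GPC1 (-1.14), and in High ERN2 cells none. Low ERN2 without stress raised SEC24D (1.07), SEC24C (0.69) and COPG1 (0.78) and called no receptor, partner or GPI-list gene; under thapsigargin it called none of the 5 lists.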

How the data were processed

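HEK293doxERN2 RNA (KAPA stranded mRNA libraries, 18 samples, 6 groups of 3) was sequenced and aligned by the authors with STAR to hg38 and compared by them with DESeq2 (submitters' processing notes; versions, annotation and strand setting are not given in the sources used here). The deposited table holds raw counts per gene symbol, unnormalised. All 18 columns were mapped by the column number in each sample's label. The labels do not say whether replicates were separate cultures, so p-values measure the spread between these libraries, which may be technical. The p24 members and gene lists were chosen with earlier results of these data known.

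Counts were tested with edgeR 4.0.16 in R 4.3.3 (quasi-likelihood, trimmed mean of M-values (TMM) scaling, filterByExpr with a minimum count of 10, only the groups compared, Benjamini-Hochberg over all genes tested, threshold 0.01). CPM used TMM-scaled totals, and per-kilobase levels the principal GENCODE 29 transcript. An exact permutation test of 3 against 3 cannot go below 0.10 and was not used. Named genes were all 9 members, TMED6, TMED7-TICAM2, the checks ERN2, XBP1, HSPA5 and DDIT3, and per list up to 3 called genes with the greatest change in High against No ERN2 control and in thapsigargin against control without induction; SEC16A and the later-named GPC1, SEC24C and COPG1 values, DNM2 and CCDC18 were added after their values were seen. DDIT3 averaged 10.1 CPM in No ERN2 control and 157 CPM in No ERN2 stress. Alternatives were DESeq2 1.42.0, its RLE size factors in edgeR, library totals, no filter, all 6 groups in 1 fit, replicate number as a block, each library left out and, added later, loess offsets (span 0.3) on transcript GC content and length, which over 93% of tested genes and all 9 members had. Replicate numbers were taken to pair samples only where all 3 same-number correlations exceeded 0.1, as in Low against No ERN2 under thapsigargin. Fits were also run on simulated counts with the same spread for all genes and, in the interaction alone, a GC trend in a single library. The simulation lacked GC trends in several libraries, as found here, so it does not show how the fits behave on these data.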

Additional observations from a re-analysis of the deposited data

Results flagged for a closer look

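The thapsigargin response of TMED9 pointed in opposite directions in No and High ERN2 cells, as its treated libraries lay above all controls without induction and below all controls at 100 ng/mL doxycycline. Neither response passed the threshold by edgeR (adjusted p = 0.0268 and 0.0459). With a library left out they ranged from 0.32 to 0.58 and from -1.04 to -0.68. How many of all genes separate in opposite directions was not counted. The difference of the log2 fold changes was -1.18 (edgeR interaction, adjusted p = 0.0344, past an unadjusted 0.05 but not the threshold of 0.01). TMED9 is GC-rich, and High ERN2 stress replicates 2 and 3 were low for GC-rich transcripts in general (-0.32 and -0.40); with the GC and length correction the difference was -1.01 (adjusted p = 0.00287). The interaction test passed for 2 of the stress genes used as checks, XBP1 (-2.14) and HSPA5 (-1.58), whose means under thapsigargin were 488 and 3687 CPM in No ERN2 and 209 and 2033 CPM in High ERN2 cells. On the log2 scale these means differ by less than the interactions. The rest lay in a higher level in High than in No ERN2 control cells. For TMED9, High against No ERN2 was 0.20 in control and -1.05 under thapsigargin.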

How the results depend on the processing

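Of 513 values of single genes under other settings with all libraries, 452 kept direction and side of the threshold, 1 lost its call, 49 gained one and 11 turned. With 1 library left out, 440 of 486 kept both. The cause of these shifts was not tested. The member with the fewest reads was TMED8, with as few as 132, followed by TMED1 with 148.

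In the order Low and High against No ERN2 without stress, Low and High against No ERN2 under thapsigargin, thapsigargin with No, Low and High ERN2, and the interaction, members called were 0, 0, 0, 3, 0, 0, 0 and 0. Without a filter they were 1, 1, 0, 5, 2, 0, 1 and 1, by DESeq2 1, 2, 0, 5, 1, 0, 3 and 1, with all 6 groups in 1 fit 0, 1, 0, 5, 0, 0, 4 and 0, and with the GC and length correction 1, 3, 0, 6, 1, 0, 5 and 2. RLE size factors gave the same counts, and library totals alone gave 4 in place of 3 in High against No ERN2 under thapsigargin. With a library left out they ranged from 0 to 2, 0 to 1, 0 to 0, 0 to 4, 0 to 1, 0 to 0, 0 to 3 and 0 to 3.

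For all genes, in the same order, 28, 1203, 0, 1512, 1611, 212, 29 and 6 were called. Without a filter the counts were 623, 1598, 1, 2236, 2173, 529, 299 and 86, by DESeq2 381, 1650, 39, 2331, 2335, 1101, 732 and 341, with all 6 groups 3, 1105, 0, 2641, 1273, 676, 941 and 35, and with the GC and length correction 122, 2612, 0, 3214, 2762, 691, 811 and 185. RLE size factors gave 14 and library totals 20 for the interaction, and totals 51 for thapsigargin with High ERN2; totals moved the interaction's all-gene median from 0.04 to -0.14. With a library left out the counts ranged from 0 to 2743, 915 to 1397, 0 to 0, 763 to 3950, 731 to 1901, 28 to 494, 4 to 2568 and 2 to 1286. The top counts came without Low ERN2 control replicate 1 (2743), Low ERN2 stress replicate 3 (494) and, in the other 3 widest ranges, High ERN2 stress replicate 1.

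With the replicate block, members called were 0, 0, 2, 2, 2, 2, 0 and 0 and all genes 124, 750, 564, 1390, 3571, 3620, 4 and 3; the blocked GC and length correction gave 2 members and 493 genes for Low against No ERN2 under thapsigargin. In the other comparisons at least 1 same-number correlation was not above 0.1, so pairing there was partial or absent. For thapsigargin the correlations were 0.08, 0.18 and 0.25 with No ERN2 and 0.46, -0.03 and 0.40 with Low ERN2. Across all groups 21 of 45 same-numbered pairs correlated above 0.1, and 13 of 18 libraries correlated best with their own number. The block lost the call of TMED3 (-0.81, adjusted p = 0.0104).

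Values that turned with the GC and length correction were TMED5 in Low against No ERN2 control (0.094), TMED2 in High against No ERN2 control (0.059), TMED1 with thapsigargin in No ERN2 (-0.0050) and Low ERN2 cells (0.00054), TMED2 (-0.043) and TMED10 (-0.11) in Low ERN2 and TMED7 (-0.070) in High ERN2 cells. TMED8 turned in High against No ERN2 under thapsigargin (-0.036 with totals, -0.034 with all 6 groups), and TMED9 with thapsigargin in Low ERN2 cells (-0.0012 with RLE, -0.0011 by DESeq2). With a library left out, ranges that crossed 0 were TMED2 -0.046 to 0.11 and TMED4 -0.023 to 0.12 in Low against No ERN2 control, TMED1 -0.057 to 0.24 and TMED3 -0.20 to 0.040 in High against No ERN2 control, TMED7 -0.039 to 0.27 and TMED8 -0.042 to 0.11 in Low against No ERN2 under thapsigargin, and TMED7 -0.39 to 0.10, TMED8 -0.16 to 0.12 and TMED10 -0.21 to 0.13 in High against No ERN2 under thapsigargin. For thapsigargin they were TMED1 -0.052 to 0.12, TMED2 -0.10 to 0.17, TMED3 -0.086 to 0.0034 and TMED8 -0.015 to 0.24 in No ERN2, TMED3 -0.24 to 0.013, TMED9 -0.14 to 0.13 and TMED10 -0.056 to 0.13 in Low ERN2, and TMED5 -0.39 to 0.11 in High ERN2 cells.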
